A study of Mus musculus with 4 samples.

Results

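Serine, glycine and folate carry single carbon units through the cell, and the transcription factor ATF4 switches on several of the enzymes involved. In P7 mouse hearts, 10 of these genes were followed among the 24454 genes with a row of counts. They were *Phgdh*, *Psat1*, *Shmt2*, *Mthfd2*, *Aldh1l1*, *Aldh1l2*, *Pck2*, *Asns*, *Atf4* and *Trib3*, taken by symbol. The set was chosen by its role in these pathways and by the difference in counts between *miR-128*OE and Ctrl hearts, which had been seen, so that difference is given for the 10 genes as a description, and the calls of the fit are counted for them only beside those of all genes.

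RNA-seq was available for 4 libraries, all from mice at postnatal day 7. The 2 Ctrl libraries were WH7 and WH8, and the 2 from *miR-128*OE mice were WH9 and WH10. Ctrl mice were *miR-128*TetRE mice, which carry *miR-128* behind a tetO promoter at the Rosa26 locus but lack the activator. The *miR-128*OE mice carried α-MHC-tTA together with *miR-128*TetRE, so that *miR-128* is made in cardiomyocytes once doxycycline is withdrawn, and the mice of the study were kept on a C57BL/6 background. The doxycycline schedule for the P7 hearts and the number of hearts in each library were not given in the sources used here, and p-values therefore measure only the spread between these libraries, which may be technical. The level of *miR-128* itself was not analysed here. Whole hearts hold many cell types, so fewer cells of a type and less RNA per cell cannot be told apart.

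The libraries held 8096870 to 14359838 counts in total. A gene with 3 counts or fewer in a library was treated as at the floor of detection, which covers counting error only. Ventricular myocyte markers were abundant in all 4 libraries, with a summed level, as counts relative to the scaled library total (CPM), of 41005 to 44063 CPM in Ctrl and 53045 to 53390 in *miR-128*OE hearts. The Ctrl libraries lay on opposite sides in their atrial markers. The summed level was highest in WH7, at 5886 CPM, and lowest in WH8, at 702, against 2110 in WH9 and 2711 in WH10. The summed levels of smooth muscle and pericyte markers (1592 to 1655 CPM in Ctrl, 2145 to 2376 in *miR-128*OE) and of erythroid markers (32.1 to 44.7 and 71.5 to 78.5, with 2 of the 5 at 0 in all libraries) were apart between the groups, and their part in any value was not tested. *Xist* gave 14543 and 11339 counts for Ctrl against 94 and 132 for *miR-128*OE. *Ddx3y*, on the Y chromosome, gave 13 and 7 counts for Ctrl against 1442 and 1768 for *miR-128*OE. Genotype and the sex of the mice thus coincide and cannot be told apart in any value below.

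Serine is made from a glycolytic intermediate by PHGDH, PSAT1 and PSPH in turn. SHMT2 in mitochondria then splits serine into glycine and a carbon unit held on folate, which MTHFD2 oxidizes and ALDH1L2 or, in the cytosol, ALDH1L1 can release as carbon dioxide. ATF4 is translated when the initiation factor eIF2α is phosphorylated, the integrated stress response, and in muscle and heart it is best known for its rise when mitochondria are impaired.

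Short sequences of 2 kinds bear on these genes: matches to the seed of *miR-128* in 3′UTRs and matches to the ATF4 element in promoters. The mature miRNA, from RefSeq, is shown 5′ to 3′ with its seed, bases 2 to 8, in capitals.
mmu-miR-128-3p: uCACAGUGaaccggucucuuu

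A 3′UTR was counted as matched where it held CACTGTG, the reverse complement of the seed, or ACTGTGA, the reverse complement of bases 2 to 7 followed by A; the 2 motifs overlap by 6 bases, and an 8-base site holds both. Only the transcript strand was searched, in 3′UTRs of GENCODE M21 on GRCm38. Matches were found in 5 of the 10 genes, *Aldh1l1*, *Aldh1l2*, *Pck2*, *Phgdh* and *Psat1*, and in 31.02% of the 13457 tested genes with a 3′UTR. With CACTGTG alone, *Aldh1l2* and *Pck2* were left, 2 of the 10, against 22.75% of the tested genes. The sites of the 3 genes with the lowest log2 fold changes, and the first of the 3 sites of *Aldh1l2*, which was not lower, are printed with the match in capitals.
Aldh1l1 (exon 23, chr6:90598950-90598956, plus strand): agccaagACTGTGAtacttctcctgtacc
Pck2 (exon 10, chr14:55549380-55549386, plus strand): ggctccaaactCACTGTGcagctaaagat
Psat1 (exon 9, chr19:15905271-15905277, minus strand): tccaccctcaaACTGTGAtcacgtggctg
Aldh1l2 (exon 23, chr10:83490086-83490092, minus strand): attttgtaaccCACTGTGacagacaggca

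*Aldh1l2* had another 8-base site at chr10:83489110-83489116 and a further match at chr10:83487943-83487949. *Phgdh* held ACTGTGA at chr3:98313243-98313249, within a 3′UTR of 133 bases. A match describes letters in a 3′UTR and is not a measured site.

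The ATF4 element joins a C/EBP site to an ATF site and was searched as TGATGNAA on both strands, from 250 bases before to 50 bases after the start site in RefSeq promoters of GRCm38.p6. Of the 9 genes with a promoter entry, 3 held it, *Asns*, *Pck2* and *Trib3*, against 2.83% of the 11250 tested genes with an entry and 4.51% of all 27025 genes with an entry. Known targets of ATF4 were among the genes chosen, so a higher share could be foreseen, and nothing is read from it. The matches are printed on the gene's strand with the element in capitals, and the element is on the opposite strand in *Pck2* and *Trib3*.
Asns (chr6:7693214-7693243, minus strand): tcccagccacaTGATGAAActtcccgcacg
Pck2 (chr14:55540152-55540181, plus strand): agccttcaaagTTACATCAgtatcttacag
Trib3 (chr2:152344028-152344057, minus strand): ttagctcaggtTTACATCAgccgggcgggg

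The shorter TGATG lies within the element, and alone it was found in *Mthfd2* as well and in 31.5% of the tested genes.

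*Aldh1l1* had the widest difference of the 10 genes and was far lower in *miR-128*OE hearts. It encodes cytosolic 10-formyltetrahydrofolate dehydrogenase, which turns 10-formyltetrahydrofolate into tetrahydrofolate and carbon dioxide while making NADPH, and spans chr6:90486427-90600203 of GRCm38 on the plus strand. There were 165 counts in WH7 and 114 in WH8, against 11 in WH9 and 13 in WH10. Both Ctrl libraries were far above both *miR-128*OE libraries, where the gene was still above the floor of 3 counts. Scaled to a common depth, normalized counts were 156 ± 7.24 (SD, n = 2) in Ctrl against 10.9 ± 0.0305 (SD, n = 2) with *miR-128*OE, a 14.3-fold difference. The log2 fold change was −3.82 with a standard error of 0.26, and it lay between −3.87 and −3.77 when any library was dropped. Among the 14266 genes that passed the filter on low counts, 6 had a log2 fold change as low as this, *Aldh1l1* included, which is 0.0421%.

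*Aldh1l1* is also known as a marker of astrocytes and is abundant in liver. Hepatocyte markers summed to 6.60 and 7.08 CPM in Ctrl against 6.64 and 5.86 with *miR-128*OE, with *Alb* at 0, 0, 0 and 3 counts and *Fgb* at 0 in all 4. *Cps1*, with 18 and 7 counts against 5 and 0, had its groups apart in the direction of *Aldh1l1*, and *Ttr*, with 15 and 5 against 26 and 23, in the other direction; neither passed the test. Astrocyte markers summed to 25.9 and 31.2 CPM in Ctrl against 36.3 and 25.2 with *miR-128*OE, and *Gfap* had 0, 1, 4 and 3 counts. The sums of both lists overlapped between the groups, although 1 of the 3 tested astrocyte markers, *Slc1a3*, was lower. Schwann cell markers were apart, at 38.4 and 40.1 CPM in Ctrl against 25.2 and 26.3 with *miR-128*OE, and their part in the difference was not tested.

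The genes on either side of *Aldh1l1* were higher in *miR-128*OE hearts. *Slc41a3*, a magnesium transporter gene at chr6:90604725-90646412, had 195 and 126 counts in Ctrl against 295 and 344 in *miR-128*OE, and the log2 fold change was 0.71 ± 0.12 (standard error), with an adjusted p = 0.00286. *Klf15*, which encodes a zinc finger transcription factor active in heart metabolism, lies at chr6:90462576-90475238 and had 77 and 42 counts against 106 and 126. Its log2 fold change was 0.69 ± 0.21 (standard error), with an adjusted p = 0.0307, and the call was lost without WH8 (adjusted p = 0.0665), WH9 (adjusted p = 0.144) or WH10 (adjusted p = 0.136), with DESeq2 (adjusted p = 0.108) and with total counts as the scale (adjusted p = 0.0562), in a range from 0.00919 to 0.144 over its alternatives. The antisense gene Gm15756 overlaps 11.05% of the exon bases of *Aldh1l1*, and the handling of strand was not given in the sources used here, so a part of the counts may belong to it.

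*Aldh1l2*, the mitochondrial counterpart of *Aldh1l1* (chr10:83487450-83534140, minus strand), went the other way in its values. It had 233 and 103 counts in Ctrl against 251 and 268 in *miR-128*OE. Normalized counts were 213 and 146 in Ctrl against 249 and 225 in *miR-128*OE hearts, so the groups did not overlap, but WH7 was much nearer to the *miR-128*OE libraries than WH8. The means were 179 ± 47.7 and 237 ± 16.3 (SD, n = 2 each), with a log2 fold change of 0.38 and a standard error of 0.18. It was 0.70 without WH7 and 0.15 without WH8. In GENCODE M21 the convergent gene *D10Wsu102e* overlaps 14.1% of the exon bases of *Aldh1l2* from the opposite strand. In RefSeq it ends 118612 bases away, and the gene models behind the counts were not given. The log2 fold change of *D10Wsu102e* was −0.01 (adjusted p = 0.973).

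Compared per length, as CPM per kilobase of exon, the pair changed places. The level of *Aldh1l1* was 1.18 and 1.84 times that of *Aldh1l2* in the Ctrl libraries and 0.0728 and 0.0806 times that of *Aldh1l2* in the *miR-128*OE libraries. The pair shared 0 words of 31 bases in their transcripts, so few reads could fit both.

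**Figure D1:**
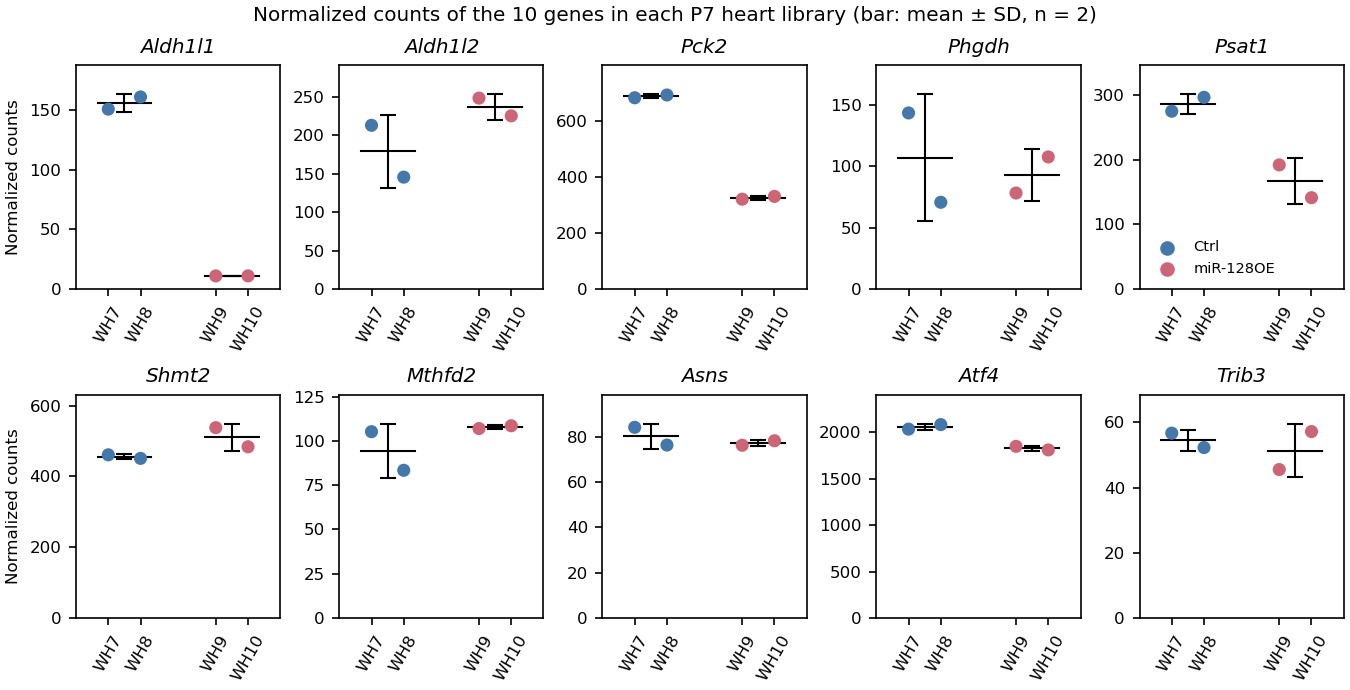
Normalized counts of each gene in the 4 P7 heart libraries, with the Ctrl libraries WH7 and WH8 in blue and the miR-128OE libraries WH9 and WH10 in red. Horizontal bars give the mean and error bars the SD (n = 2), and each axis starts at 0. Aldh1l1, Pck2, Psat1 and Atf4 were lower in both miR-128OE libraries than in both Ctrl libraries. Aldh1l2, Shmt2 and Mthfd2 were higher in both, and the libraries overlapped for Phgdh, Asns and Trib3.

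*Pck2* encodes the mitochondrial PEP carboxykinase, which makes phosphoenolpyruvate from oxaloacetate, and lies at chr14:55540266-55551242 on the plus strand. It had 745 and 489 counts in Ctrl against 323 and 392 in *miR-128*OE. Normalized counts were 681 and 691 in Ctrl against 320 and 330 in *miR-128*OE hearts, so replicates were close and the groups well apart. Ctrl hearts had 2.11 times the mean of *miR-128*OE hearts, and the log2 fold change was −1.08 with a standard error of 0.10. Leaving out any library moved it no further than −1.09 to −1.04.

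The cytosolic form, *Pck1*, which serves gluconeogenesis in liver and glycerol synthesis in fat, was higher in *miR-128*OE hearts. It had 13 and 3 counts in Ctrl against 41 and 36 in *miR-128*OE, and the log2 fold change was 2.0 ± 0.47 (standard error), with an adjusted p = 0.0108. The log2 fold change was 3.02 without WH7 and 1.56 without WH8, and the call was lost without WH9 (adjusted p = 0.104), in a range from 8.88e-05 to 0.104 over its alternatives. Per length, *Pck1* stood at 0.0397 and 0.0140 times *Pck2* in Ctrl and at 0.289 and 0.209 times *Pck2* in *miR-128*OE libraries. The value in WH8 rests on a count at the floor, and *Pck2* remained the more abundant form in all 4 libraries. Brown fat markers were higher beside *Pck1*: their summed level was 41.7 and 39.0 CPM in Ctrl against 82.8 and 63.4 with *miR-128*OE, 3 of the 5 were called higher, and *Ucp1* had 56, 3, 253 and 189 counts in WH7 to WH10. Their part in the value of *Pck1* was not tested.

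Of the serine synthesis genes, *Psat1* was lower and *Phgdh* could not be placed. *Psat1* encodes phosphoserine aminotransferase, the second step of the pathway (chr19:15904678-15947337, minus strand), and had 301 and 210 counts in Ctrl against 194 and 168 in *miR-128*OE. Normalized counts were 275 and 297 against 192 and 141, with no overlap, and Ctrl hearts had 1.72 times the mean of *miR-128*OE hearts. The log2 fold change was −0.78 with a standard error of 0.16, and it was −1.0 without WH9 and −0.55 without WH10.

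*Phgdh*, the first and committed step (chr3:98313170-98339990, minus strand), had 157 counts in WH7, 50 in WH8, 79 in WH9 and 128 in WH10. Normalized counts were 107 ± 51.6 (SD, n = 2) in Ctrl against 92.9 ± 20.8 (SD, n = 2) with *miR-128*OE. The *miR-128*OE values of 78.2 and 108 lay between the Ctrl values of 144 and 70.7, and the log2 fold change of −0.24 had a standard error of 0.30. It was 0.40 without WH7 and −0.61 without WH8, so its direction rests on a single Ctrl library. The atrial marker *Nppa* ranked the libraries in the same order, with 34013 counts in WH7, 1943 in WH8, 5217 in WH9 and 12886 in WH10. By CPM, *Myl4*, *Sln* and the sum of the atrial markers did so too. *Bmp10* was highest in WH10, at 8.50 CPM against 3.88 in WH7, and *Myl7* was slightly higher in WH9 than in WH10. The paper also counts *Nppa* as a fetal gene. The order of *Phgdh* was not particular to atrial markers. Summed fibroblast markers had it too, at 8672, 5613, 7461 and 8036 CPM in WH7 to WH10. So did summed macrophage markers, at 63.3, 43.1, 48.6 and 49.8 CPM. The part of atrial tissue, fibroblasts or macrophages in the spread of *Phgdh* was not tested. *Psph*, the last step, had 145 and 90 counts in Ctrl against 127 and 152 in *miR-128*OE, and the log2 fold change was −0.04 ± 0.16 (standard error), with an adjusted p = 0.883.

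*Shmt2*, mitochondrial serine hydroxymethyltransferase (chr10:127517123-127522444, minus strand), had 504 and 319 counts in Ctrl against 543 and 575 in *miR-128*OE. Normalized counts were 461 and 451 against 538 and 484, apart by a small gap, with a log2 fold change of 0.16 and a standard error of 0.10. *Mthfd2*, the methylenetetrahydrofolate dehydrogenase of mitochondria in growing cells (chr6:83305691-83325908, minus strand), had 115 and 59 counts in Ctrl against 108 and 129 in *miR-128*OE. Its normalized counts of 105 and 83.4 in Ctrl lay just under 107 and 109 in *miR-128*OE hearts, with a log2 fold change of 0.18 and a standard error of 0.19. Without WH7 it was 0.37.

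Ratios to the paralogs of these enzymes, per length, overlapped between the groups for *Shmt2* and did not for *Mthfd2*. *Shmt1*, the cytosolic form, stood at 0.202 and 0.266 times *Shmt2* in Ctrl and at 0.257 and 0.267 times *Shmt2* in *miR-128*OE libraries. *Mthfd2* stood at 1.36 and 0.953 times *Mthfd2l*, a related mitochondrial enzyme, in Ctrl and at 1.51 and 1.47 times *Mthfd2l* in *miR-128*OE libraries. *Shmt1* (log2 fold change 0.34, adjusted p = 0.159), *Mthfd2l* (−0.18, adjusted p = 0.409), *Mthfd1* (0.17, adjusted p = 0.321) and *Mthfd1l* (0.30, adjusted p = 0.307) did not pass the test, and *Shmt1* passed it without WH8 (adjusted p = 0.0393, in a range from 0.0393 to 0.550 over its alternatives).

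**Figure D2:**
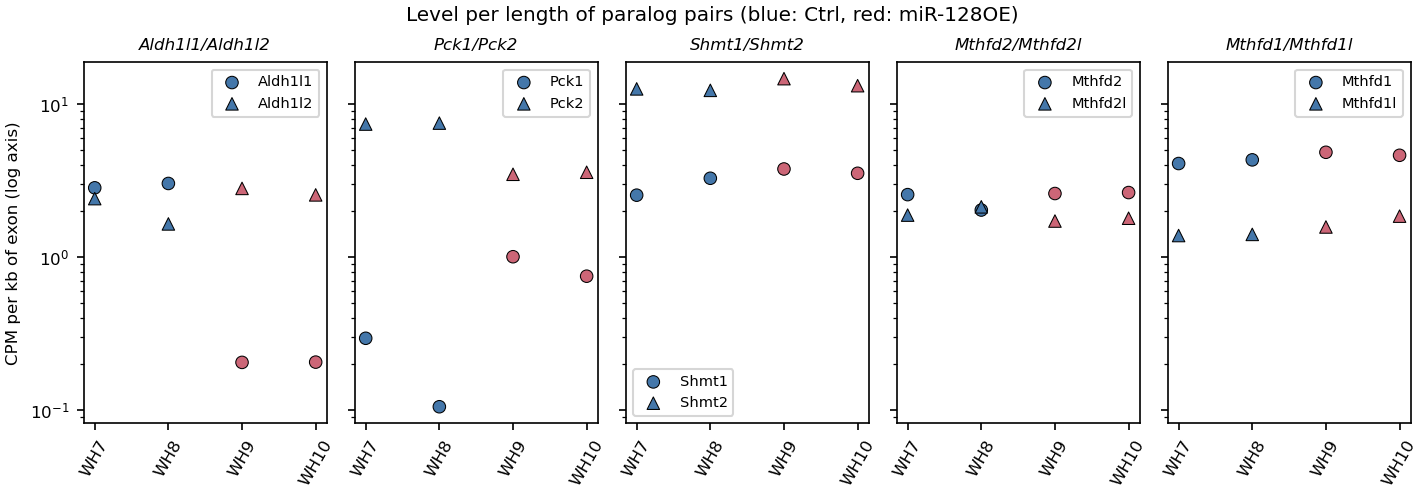
Level per length (CPM per kilobase of exon, log axis) of 5 pairs of paralogs in each library, Ctrl in blue and miR-128OE in red, with circles for the first gene of a pair and triangles for the second. Aldh1l1 lies above Aldh1l2 in both Ctrl libraries and far under it in both miR-128OE libraries, while Pck1 stays under Pck2 in all 4.

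*Atf4* itself was abundant and had slightly lower values in *miR-128*OE hearts. The gene (chr15:80255184-80257541, plus strand) had 2225 and 1474 counts in Ctrl against 1868 and 2153 in *miR-128*OE. Normalized counts were 2035 and 2083 against 1849 and 1811, with no overlap, and the log2 fold change was −0.17 with a standard error of 0.08. ATF4 is controlled largely in translation, which these counts do not measure. *Asns*, asparagine synthetase and a standard target of ATF4 (chr6:7675169-7693254, minus strand), had 92 and 54 counts in Ctrl against 77 and 93 in *miR-128*OE. Its normalized counts of 84.1 and 76.3 in Ctrl against 76.2 and 78.2 in *miR-128*OE hearts overlapped, with a log2 fold change of −0.06 and a standard error of 0.21. *Trib3*, a pseudokinase gene that ATF4 and its partner CHOP induce (chr2:152337422-152344032, minus strand), had 62 and 37 counts in Ctrl against 46 and 68 in *miR-128*OE. Its normalized counts of 56.7 and 52.3 in Ctrl lay within the *miR-128*OE values of 45.5 and 57.2, with a log2 fold change of −0.09 and a standard error of 0.26.

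All 10 genes passed the filter on low counts. At an adjusted p-value under 0.05 the fit called 3 of them lower, *Aldh1l1*, *Pck2* and *Psat1*, and 0 higher, where it called 15.0% of all tested genes lower and 16.5% higher, 31.5% in either direction. The libraries of the groups did not overlap for 4 lower and 3 higher genes of the 10, against 34.4% and 33.7% of all tested genes, or 68.1% in either direction. *Aldh1l1* and *Pck2* were at least 2-fold lower, 2 of the 10 genes, as were 4.59% of all tested genes. The median log2 fold change of the 10 genes was −0.13, beside −0.01 over all tested genes. These counts are of the difference in view of which the genes were chosen, and nothing is read from them. Without WH7 the median was 0.00034 and *Aldh1l2* was called higher, without WH8 *Phgdh* was also called lower, and without WH10 the call of *Psat1* was lost. With total counts as the scale *Atf4* was also called lower, at −0.27.

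**Figure D3:**
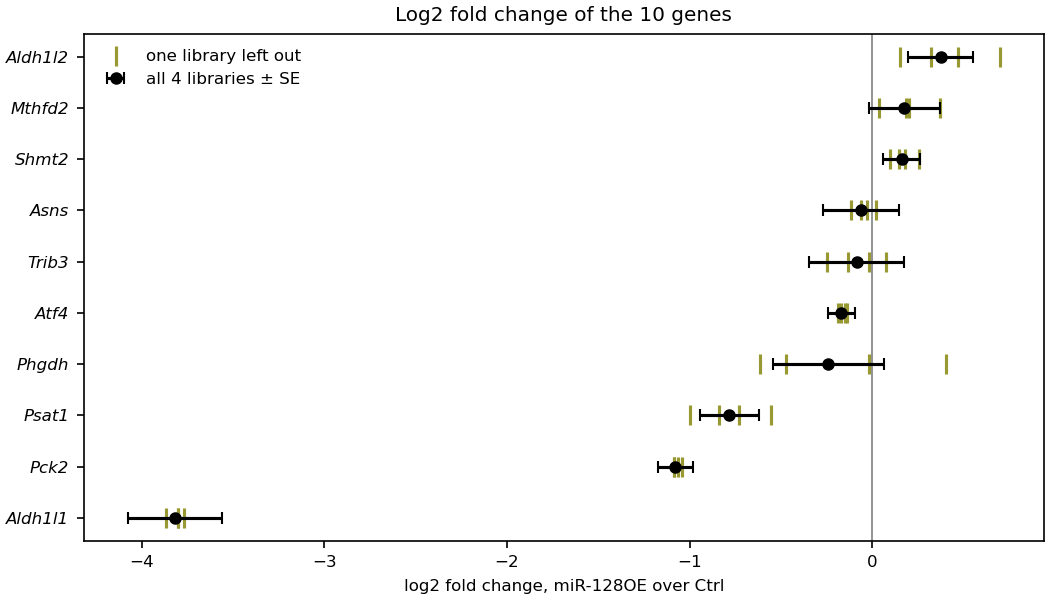
Log2 fold change of each of the 10 genes, miR-128OE over Ctrl, with its standard error from all 4 libraries (black) and the value with each library left out in turn (green ticks). With any library left out, Aldh1l1, Pck2, Psat1 and Atf4 stay under 0 and Aldh1l2, Shmt2 and Mthfd2 stay over 0. Asns and Trib3 change sign, as does Phgdh, which runs from −0.61 to 0.40.

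Per length, *Atf4* had the highest level of the 10 genes in Ctrl hearts, at 74.2 ± 1.24 CPM per kilobase (SD, n = 2), and *Shmt2* followed at 12.5 ± 0.194. *Pck2* (7.47 ± 0.0757) and *Psat1* (5.71 ± 0.304) came next, each apart from its neighbours in this order. *Phgdh* (3.66 ± 1.76) overlapped *Aldh1l1* (2.93 ± 0.136), and *Asns*, *Mthfd2*, *Trib3* and *Aldh1l2*, from 2.49 ± 0.172 down to 2.03 ± 0.540, overlapped one another in turn. In *miR-128*OE hearts *Atf4* (65.9 ± 0.984) and *Shmt2* (14.0 ± 1.04) were again at the top. *Pck2* at 3.53 ± 0.0762 was no longer apart from *Psat1* at 3.33 ± 0.717, *Phgdh*, *Aldh1l2* and *Mthfd2* overlapped in turn below them, and *Aldh1l1* stood last, at 0.205 ± 0.000573. The order rests on the length taken: with the longest transcript in place of all exon bases, 4 of the genes had another rank in Ctrl and 3 in *miR-128*OE hearts.

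The rest of the pathways was covered by 8 lists with 129 other genes, of which 115 were tested. Here 22 were higher, 13 were lower and 80 did not pass, with a median log2 fold change of 0.12, beside 16.5% higher, 15.0% lower and a median of −0.01 over all tested genes. Without WH9 the counts were 12 higher and 6 lower, and without WH10 they were 14 higher and 6 lower.

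In serine and glycine metabolism, 2 of 13 tested genes were higher, 2 were lower and the median was −0.19. *Slc1a4*, which encodes the neutral amino acid transporter ASCT1 that carries serine, had 116 and 43 counts in Ctrl against 232 and 294 in *miR-128*OE (log2 fold change 1.47, standard error 0.22, adjusted p = 0.00125). *Dld*, a dehydrogenase that the glycine cleavage system shares with pyruvate dehydrogenase, was also higher (0.60, standard error 0.08, adjusted p = 0.000715). *Amt*, the aminomethyltransferase of glycine cleavage (−0.97, adjusted p = 0.0230), and *Sdsl*, which resembles serine dehydratase (−0.45, adjusted p = 0.0231), were lower. The call of *Amt* was lost without WH8 or WH9 and that of *Sdsl* without WH9 or WH10, with adjusted p-values up to 0.167 and 0.149, so that 0 genes of the list were lower without WH9.

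In the folate cycle, 0 of 18 tested genes were higher, 3 were lower and the median was 0.02. *Tyms*, thymidylate synthase, had 324 and 242 counts in Ctrl against 193 and 222 in *miR-128*OE (−0.75, standard error 0.13, adjusted p = 0.00265). Without WH10 the list had 1 lower gene, and without WH9 it had 2. *Tyms* is expressed in dividing cells, and the summed level of 4 proliferation markers was lower beside it, at 366 and 490 CPM in Ctrl against 244 and 244 with *miR-128*OE, with 2 of the 4 called lower. Their part in the value of *Tyms* was not tested.

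Purine synthesis, which takes carbon from 10-formyltetrahydrofolate and glycine, had 4 higher and 2 lower genes of 13, with a median of 0.15. *Ppat*, the committed step, had 230 and 151 counts in Ctrl against 490 and 462 in *miR-128*OE (1.04, standard error 0.14, adjusted p = 0.000687). *Paics* (0.30, adjusted p = 0.0239) and *Prps2* (0.34, adjusted p = 0.0333) were higher, and *Pfas* (−0.55, adjusted p = 0.00631) and *Impdh2*, the first step towards guanine nucleotides (−0.32, adjusted p = 0.0180), were lower. Without WH9 the list had 1 higher and 0 lower genes, and without WH10 it had 2 higher and 1 lower. In methionine metabolism 2 of 9 tested genes were higher, 0 were lower and the median was 0.12. These were *Mat2a* (0.46, adjusted p = 0.00281) and *Mat2b* (0.29, adjusted p = 0.0407), the catalytic and regulatory subunits of the enzyme that makes S-adenosylmethionine. The call of *Mat2b* was lost without WH7 (adjusted p = 0.127), WH9 (adjusted p = 0.241) or WH10 (adjusted p = 0.115), with 0.00489 to 0.241 over its alternatives.

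**Figure D4:**
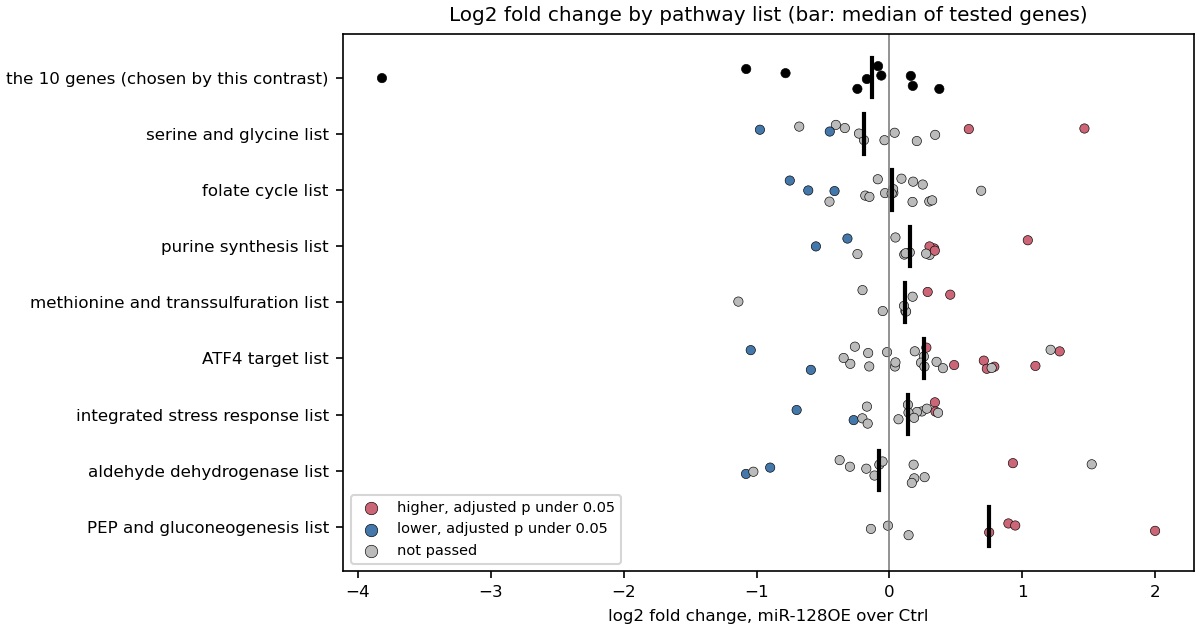
Log2 fold change, miR-128OE over Ctrl, of the 10 genes (black, chosen by this contrast) and of the tested genes of each pathway list, with genes higher at an adjusted p-value under 0.05 in red, lower in blue and others in grey. Black bars are medians, which run from −0.19 for serine and glycine to 0.75 for PEP and gluconeogenesis.

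Targets of ATF4 were found on both sides of the test. Of 25 tested genes, 7 were higher, 2 were lower and the median was 0.26. Among those past the test, the highest log2 fold changes were those of *Ppp1r15a*, with 265 and 173 counts in Ctrl against 562 and 744 in *miR-128*OE (1.28, standard error 0.11, adjusted p = 9.74e-05), and *Ddit4* (1.10, standard error 0.14, adjusted p = 0.000508). *Ppp1r15a* encodes the inducible subunit that dephosphorylates eIF2α, and *Ddit4* an inhibitor of mTORC1. *Slc7a1*, a carrier of arginine and lysine, was higher (0.71, adjusted p = 0.00056), and so was the stress factor *Atf3* (0.79, adjusted p = 0.00611), whose call was lost without WH10 (adjusted p = 0.0612, in a range from 2.97e-05 to 0.0612). *Cebpb*, *Eif4ebp1* and *Lonp1* were the other higher genes. *Ppp1r15a*, *Ddit4*, *Atf3* and *Cebpb* also answer to growth factor, hypoxia or glucocorticoid signals.

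The 2 lower genes were *Vldlr*, a lipoprotein receptor (−0.59, adjusted p = 0.00186), and *Pycr1*, the last step of proline synthesis in mitochondria. *Pycr1* had 96 and 50 counts in Ctrl against 41 and 44 in *miR-128*OE (−1.04, standard error 0.25, adjusted p = 0.0126), and its call was lost without WH7, WH9 or WH10, with adjusted p-values from 0.000827 to 0.0953 over its alternatives. *Aldh18a1*, the step before it in proline synthesis, did not pass, at −0.15 (adjusted p = 0.344). *Ddit3*, which encodes CHOP (−0.29, adjusted p = 0.0780), and *Atf5* (−0.16, adjusted p = 0.175) did not pass. Both were called lower with total counts as the scale (adjusted p = 0.0257 and 0.0425), and *Ddit3* also with upper-quartile factors (adjusted p = 0.0458), in ranges from 0.0257 to 0.407 and from 0.0425 to 0.520 over their alternatives. *Chac1*, a glutathione-degrading enzyme and a sensitive target of this pathway, was too low to be tested, with 15 and 5 counts in Ctrl against 10 and 7 in *miR-128*OE. The list had 4 higher and 1 lower genes without WH9 and the same numbers without WH10. With total counts as the scale it had 6 higher and 5 lower.

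The ATF4 element was found in 9 of the 24 genes of the list with a promoter entry, or 37.5%. Over all genes with an entry the share was 4.51%, and over the tested genes 2.83%. The list was made up of known ATF4 targets, so a higher share could be foreseen, and nothing is read from it. The 9 include *Chac1* and *Fgf21*, which were not tested. Of these 9 genes *Atf3* was higher, *Vldlr* and *Pycr1* were lower, and the others did not pass or were not tested. Among the 10 genes, the 3 with the element ran from −1.08 in *Pck2* to −0.06 in *Asns*. A match thus stood beside values in both directions, and no match says only that these letters are not in the window.

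**Figure D5:**
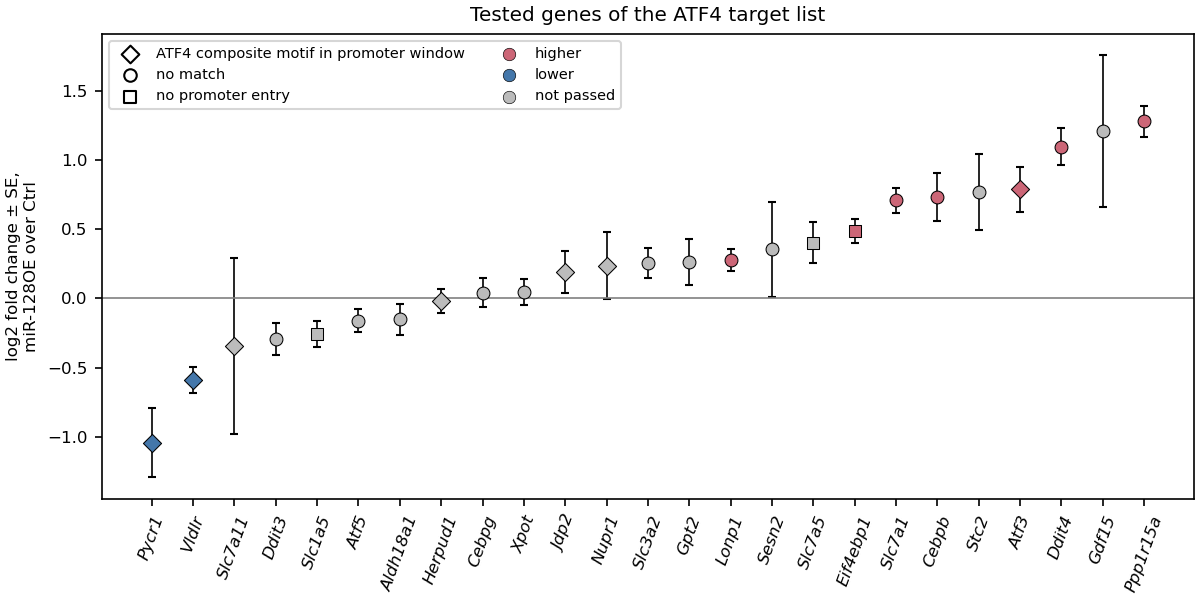
Log2 fold change with its standard error, miR-128OE over Ctrl, of the tested genes of the ATF4 target list, in order of value, with genes higher at an adjusted p-value under 0.05 in red, lower in blue and others in grey. Diamonds mark genes with TGATGNAA in the promoter window and squares genes without a promoter entry, and the diamonds lie from Pycr1 at −1.04 to Atf3 at 0.79.

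The kinases, phosphatases and exchange factors of the integrated stress response had 2 higher and 2 lower genes among 15 tested, and a median of 0.14. *Ppp1r15b*, the constitutive counterpart of *Ppp1r15a*, was higher (0.35, adjusted p = 0.0198), as was *Eif2b1*, a subunit of the exchange factor (0.34, adjusted p = 0.0441). *Eif2ak2*, the kinase PKR that answers to double-stranded RNA, was lower (−0.70, standard error 0.09, adjusted p = 0.000803), as was *Gcn1*, an activator of the kinase GCN2 (−0.27, adjusted p = 0.0416). Without WH9 or without WH10 the list had 0 higher and 1 lower.

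Of 15 tested aldehyde dehydrogenases, the wider family of *Aldh1l1*, 1 was higher, 2 were lower and the median was −0.08. *Aldh1b1*, a mitochondrial form, was higher (0.93, standard error 0.13, adjusted p = 0.00112). *Aldh9a1* (−0.90, standard error 0.09, adjusted p = 0.000235) and *Aldh1a1*, which makes retinoic acid (−1.08, standard error 0.23, adjusted p = 0.00694), were lower, and the call of *Aldh1a1* was lost without WH10 (adjusted p = 0.0677, in a range from 4.73e-05 to 0.0677). Without WH7 the list had 2 higher. Around phosphoenolpyruvate, the product of *Pck2*, 4 of 7 tested genes were higher, 0 were lower and the median was 0.75. Besides *Pck1*, these were the phosphoglycerate mutases *Pgam1* (0.90, adjusted p = 0.000124) and *Pgam2* (0.95, adjusted p = 0.000284) and the pyruvate kinase *Pkm* (0.75, adjusted p = 0.000327), and without WH9 the count was 3.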

How the data were processed

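The authors deposited raw RNA-seq counts per gene, from reads filtered for quality, mapped by TopHat2 to mm10 and counted over known genes in Bioconductor. Gene models, strand handling and multi-mapping rules were not given in the sources used here. The 10 genes, the pathway and marker lists and the tests were chosen with earlier results of these data known. Of 24454 identifiers, 24374 were matched to a symbol.

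Counts were fitted with edgeR 4.0.16 in R 4.3.3, as the study's methods name edgeR, with the filterByExpr defaults (minimum count 10, total 15), TMM factors, the quasi-likelihood test and Benjamini-Hochberg adjustment over 14266 genes at a threshold of 0.05. Standard errors were taken as the absolute log2 fold change over the root of F. Normalized counts are scaled to the mean effective library size of 11773000. The common biological coefficient of variation was 8.78%. On simulated counts for 14266 genes with 200 changed, the test found 96% of the genes given a log2 change of 1 and 5.31% of calls were false. The simulation gave every gene the common dispersion and drew the changed genes from those above a minimum mean count. In the data the fit called 4490 genes, so these rates cannot be carried over to it.

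Named genes were the 10, up to 3 genes with the smallest p in each direction per list, direct partners and paralogs, and the neighbours of *Aldh1l1* and *Aldh1l2*. Genes outside this rule (*Cebpb*, *Eif4ebp1*, *Lonp1* and markers) were named after their values were seen, and some genes under it are not reported here. Levels per length use all exon bases of GENCODE M21. Motifs were read with Python 3.11.15 from RefSeq promoters, and 3′UTR sites from GENCODE M21. Alternatives were DESeq2 1.42.0, the exact test, other scalings and filters, and each library left out. A comparison of protein sequences was not made. RNA-seq of P1 and P28 hearts was not analysed here.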

Additional observations from a re-analysis of the deposited data

How the results depend on the processing

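No paired analysis was possible because the groups share no replicate numbers. Over the alternatives, no tested gene named here reversed its direction while called, and the counts that moved by over 1.5 times are given below, with the split of all calls under the other scalings; the cause was not tested. With the DESeq2 test, 1410 genes were lower, and the counts were 1 lower for serine and glycine, 2 higher and 1 lower for purine synthesis, 1 higher for methionine, and 0 higher and 1 lower for the stress response. With total counts as the scale, which moves the median of all genes from −0.01 to −0.11, the split was 1611 higher and 2948 lower, against 2347 and 2143, with 1 higher for purine synthesis, 1 higher for methionine, 5 lower ATF4 targets and 0 higher for the stress response. With upper-quartile factors the split was 1980 higher and 2499 lower, with 1 higher for purine synthesis, 1 higher for methionine, 4 lower ATF4 targets and 1 higher for the stress response. The exact test and the fit without a filter gave 2 higher aldehyde dehydrogenases each, and without a filter 1 of the 10 genes, *Aldh1l2*, was called higher.

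Of the values of named pathway genes under these and the left-out libraries, 413 stayed on their side of the threshold, 53 lost a call and 7 gained one. With a library left out, all calls ran from 1564 (without WH9) to 5038, higher calls from 897 to 2654 and lower calls from 667 to 2384. Of the 10 genes 0 to 1 were higher and 2 to 4 lower, with a median from −0.19 to 0.00034. Pathway calls ran from 18 to 37, with 12 to 23 higher and 6 to 14 lower. The ranges were 2 to 3 higher and 0 to 2 lower for serine and glycine, 1 to 4 lower for folate, 1 to 5 higher and 0 to 3 lower for purine synthesis, 1 to 2 higher for methionine, 4 to 9 higher and 1 to 2 lower for ATF4 targets, 0 to 2 higher and 1 to 3 lower for the stress response, 1 to 2 higher and 1 to 2 lower for aldehyde dehydrogenases, and 3 to 4 higher for PEP. Over 11 alternatives *Aldh1l1* stayed between −3.92 and −3.77, *Pck2* between −1.18 and −1.04 and *Psat1* between −1.0 and −0.55, while *Phgdh*, *Asns* and *Trib3* changed sign. With the longest transcript as length, 4 genes in Ctrl and 3 in *miR-128*OE had another rank, and CACTGTG alone left 2 of the 10 genes with a match. With 2 libraries a group, genes under about 100 counts, such as *Asns* and *Trib3*, have standard errors above 0.20.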
